A study of Mus musculus with 4 samples.

Results

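The genes described here mark the Schwann cell lineage or, for Nrg1, encode a ligand that acts on it: Sox10, Foxd3, Erbb3, Nrg1, Fabp7, Egfl8 and Cdh19. They were read in muscle dissected from E13.5 mouse embryos, through every probe set that the platform annotation gives to one of these symbols. All 7 genes were found, with 10 of the 45101 probe sets on the array, among 18193 genes that a probe set names. Total RNA was hybridised on 1 Affymetrix array for each of 4 groups. These were limb muscle of MyoD-/- embryos, limb muscle of wild-type (WT) embryos, back muscle of Myf5-/- embryos and back muscle of WT embryos. The strain is BALB/c in all 4, and no treatment is given. The labels call the mutants null without naming the alleles, and they do not say whether embryos were pooled. Both targeted factors, MyoD (encoded by Myod1) and Myf5, direct cells into skeletal muscle, and the series is titled for the role of muscle in motor neuron development.

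Schwann cells, the glia of peripheral nerves, descend from neural crest cells that travel along growing axons into the limb and trunk as Schwann cell precursors. The transcription factors Sox10 and Foxd3 mark the crest and its glial derivatives. Axons present neuregulin 1, the product of Nrg1, to the receptor ErbB3 (gene Erbb3), which has little kinase activity of its own and signals together with ErbB2. Fabp7 is a fatty acid binding protein of precursor glia, also made by radial glia in the brain. Cdh19 is a cadherin of Schwann cell precursors, and Egfl8 is a secreted protein with EGF-like repeats. Several of these genes are not restricted to this lineage, since Sox10 and Erbb3 are also used by melanoblasts and Erbb3 by muscle.

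Each group had 1 array, so values carry no error between embryos, no p-value is given, and every difference is between single arrays. Signals are linear intensities scaled to a common mean, and a signal under 100 was treated as having no level. Ratios were taken after setting such signals to 100, so a ratio against one of them is a bound. A difference was counted when it reached 2-fold with the brighter array at 200 or more. As a measure of noise, the SD of the log2 ratio across probe sets of one gene had a median of 0.35 in the limb pair, 0.32 in the back pair and 0.35 for WT limb against WT back. It covers probe noise, not embryos. The share of probe sets at 100 or more was 56.0% in MyoD-null limb, 61.5% in WT limb, 63.7% in the back array labelled Myf5-null and 57.9% in WT back, so more dim genes had a level in WT limb and in the back array labelled Myf5-null. The 3 prime over 5 prime signal ratio of Gapdh, a sign of RNA quality and labelling, was 8.06, 12.2, 9.46 and 6.45 in the same order. Myod1 was 688 in MyoD-null limb against 1438 in WT limb by its brighter probe set, and 92.1 against 209 by the other. It was thus lower in the array labelled null but still at 688. Myf5 was 583 in the back array of Myf5-/- embryos against 508 in WT back. The Myf5 signal goes against its label, so that array is called by its label, Myf5-null, and its directions rest on the label. A probe outside the deleted part of a gene would not check the label, and where these probes lie was not examined.

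Of the 7 genes, Sox10, Foxd3, Erbb3 and Fabp7 reached 100 in all 4 arrays, Egfl8 in 3 and Cdh19 in 2, while Nrg1 did so in none. At 100 or more were 6 of the 7 in MyoD-null limb, 4 in WT limb, 5 in the back array labelled Myf5-null and 6 in WT back. Of all genes, 69.7%, 74.8%, 75.5% and 70.9% reached 100 in these arrays, in the same order. Among the 6 measured genes the highest signal lay in WT back for Erbb3, Fabp7 and Egfl8, in MyoD-null limb for Foxd3 and Cdh19, and in the back array labelled Myf5-null for Sox10. WT limb was the highest array for 0 of them.

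**Figure D1:**
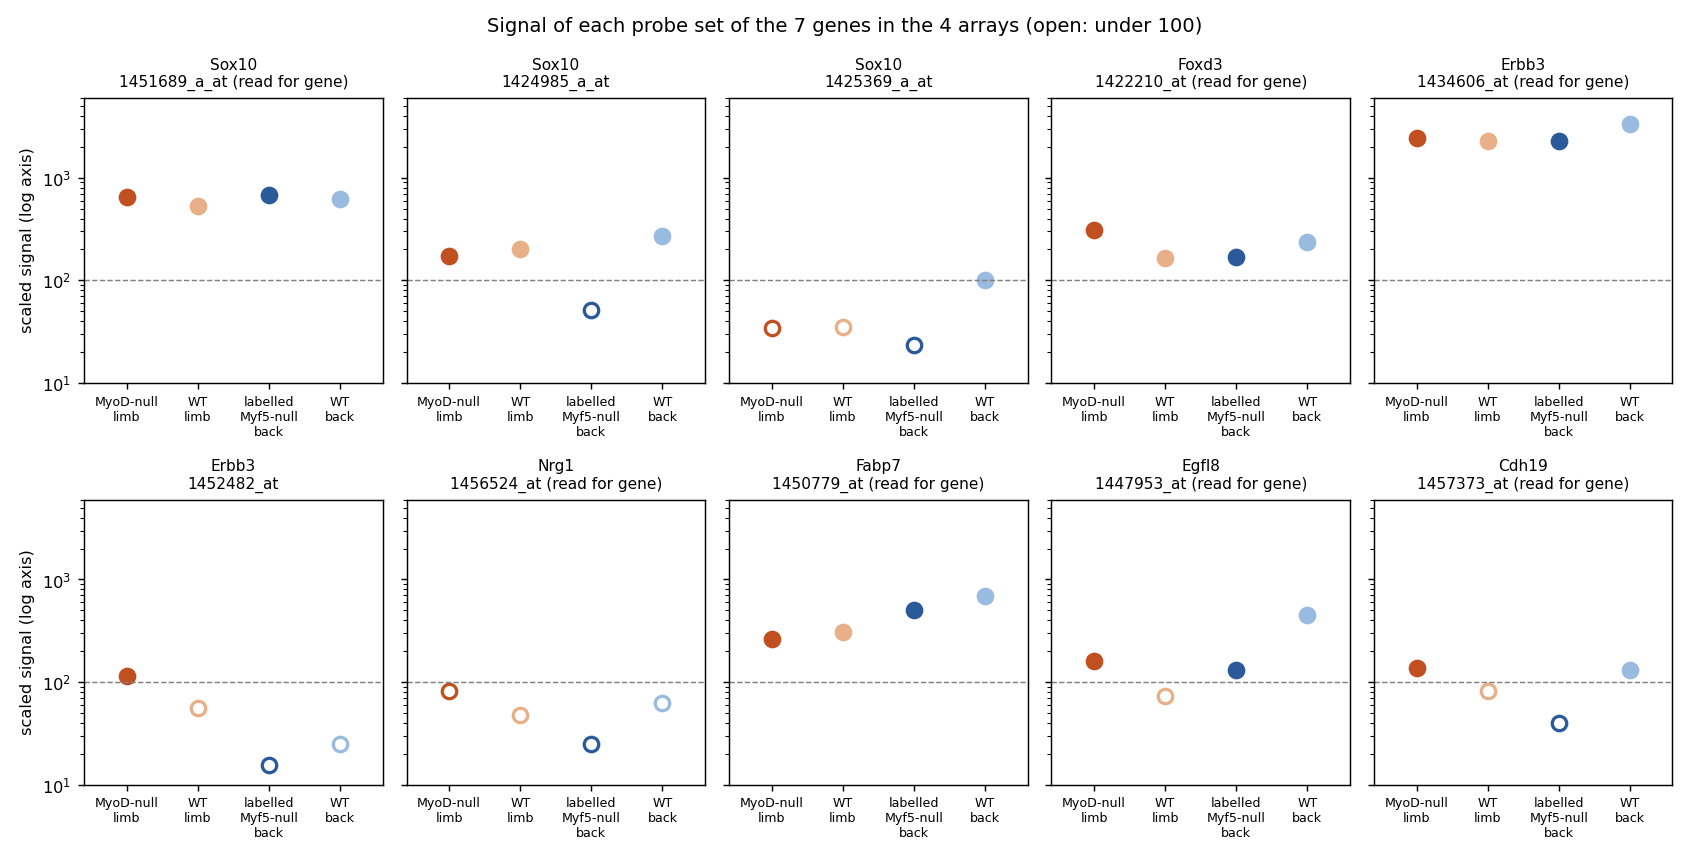
Scaled signal (log axis) of each of the 10 probe sets of the 7 genes, with 1 point per array and a dashed line at 100. Open points lie under 100. Egfl8 stands at 455 in WT back and at 161 or less in the other arrays, while the brightest Sox10 probe set stays between 536 and 682.

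Sequence around an annotated start is shown for Egfl8 and Fabp7, the genes with a 2-fold difference in the probe set read for the gene. The windows run from 250 bases before to 50 after that start, from RefSeq with the build GRCm38.p6. The start used for Egfl8 lies 591 bases inside the 5 prime end of the gene as RefSeq spans it, so its whole window lies within the gene, while the start used for Fabp7 is the 5 prime end of its gene. Capitals mark the cores ACAAAG and ACAATG, letters that Sox family factors bind, searched on both strands. Windows of the table matched 3 of the 7 genes, Foxd3, Fabp7 and Egfl8.
Egfl8, chr17:34615922-34616221, minus strand: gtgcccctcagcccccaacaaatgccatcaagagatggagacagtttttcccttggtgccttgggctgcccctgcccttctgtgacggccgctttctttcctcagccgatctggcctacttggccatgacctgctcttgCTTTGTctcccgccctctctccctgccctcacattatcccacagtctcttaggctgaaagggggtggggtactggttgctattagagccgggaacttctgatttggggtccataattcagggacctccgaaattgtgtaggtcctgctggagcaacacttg
Fabp7, chr10:57784673-57784972, plus strand: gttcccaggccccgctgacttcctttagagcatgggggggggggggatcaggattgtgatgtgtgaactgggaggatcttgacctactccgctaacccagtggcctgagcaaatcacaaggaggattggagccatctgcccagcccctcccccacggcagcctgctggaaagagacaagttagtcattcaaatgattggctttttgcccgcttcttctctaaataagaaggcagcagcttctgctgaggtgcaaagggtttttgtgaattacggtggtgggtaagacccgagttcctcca
The Egfl8 window holds 1 core, ACAAAG, read on the opposite strand with its first printed base at position -111 from that start, within the gene. The Fabp7 and Foxd3 windows hold 0. Of 32851 promoter windows of the same length, 18.7% hold ACAAAG, 12.6% hold ACAATG and 28.6% hold either. A match describes these letters and is not a binding site.

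The transcription factors came first. Sox10, the regulator that peripheral glia need from their start, is read by 3 probe sets that did not move together. The brightest, 1451689_a_at, had 649 in MyoD-null limb, 536 in WT limb, 682 in the back array labelled Myf5-null and 618 in WT back. These signals lie close to each other, with log2 ratios of 0.28 in the limb pair and 0.14 in the back pair, both within the spread between probe sets. The second, 1424985_a_at, had 172 in MyoD-null limb against 204 in WT limb, and 51.2 in the back array labelled Myf5-null against 268 in WT back. In the back pair this is at least 2.68-fold lower, the opposite direction to the brightest probe set. The dimmest, 1425369_a_at, was under 100 in MyoD-null limb, WT limb and the back array labelled Myf5-null, and 101 in WT back. All 3 names mark probes that can match several transcripts of the gene, and whether the probe sets read different transcripts was not tested. A direction for Sox10 in the back pair therefore depends on the probe set.

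Foxd3, a repressor that holds neural crest cells in a progenitor state, is read by 1 probe set. Its signal was 307 in MyoD-null limb against 163 in WT limb, and 170 in the back array labelled Myf5-null against 235 in WT back. MyoD-null limb was the highest of the 4 arrays, 1.88-fold over WT limb (log2 ratio 0.91), short of the 2-fold threshold, which it passed under quantile normalization (1.06) and after loess (1.08). In the back pair the direction was the other one, at -0.47. The 2 log2 ratios differ by -1.38, back minus limb, a difference that was not tested and that rests on 1 array in each group.

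The receptor and its ligand followed. Erbb3, the neuregulin receptor of the lineage, had 2443 in MyoD-null limb and 2305 in WT limb by its brighter probe set, 1434606_at. It had 2263 in the back array labelled Myf5-null and 3353 in WT back. Thus 3 arrays lay close together and WT back stood above them, 1.48-fold over the back array labelled Myf5-null (log2 ratio -0.57) and 1.45-fold over WT limb (-0.54). Within the limb pair the log2 ratio was 0.08. A dim second probe set of Erbb3 reached 100 in MyoD-null limb alone, at 114, and gives no comparison in the back. Nrg1, the axonal ligand, had 81.3 in MyoD-null limb, 48.2 in WT limb, 24.7 in the back array labelled Myf5-null and 62.5 in WT back. All 4 are under 100, so its single probe set gives no level and no order here. The gene has many transcript forms, and which of them this probe set covers was not examined.

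The remaining genes encode a carrier, a secreted protein and an adhesion molecule. Fabp7 had 265 in MyoD-null limb and 304 in WT limb, against 509 in the back array labelled Myf5-null and 683 in WT back. Both limb arrays were lower than both back arrays, and WT limb was 2.25-fold lower than WT back (log2 ratio -1.17, or -0.95 with a pseudocount of 100, short of 2-fold). Between genotypes it differed by less, with -0.20 in the limb pair and -0.43 in the back pair.

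Egfl8 had the largest ratios of the 7 genes in both comparisons against WT back. Its signal was 161 in MyoD-null limb, 73.6 in WT limb, 132 in the back array labelled Myf5-null and 455 in WT back. The array labelled Myf5-null back was 3.45-fold lower than WT back (log2 ratio -1.79), and WT limb, under 100, was at least 4.55-fold lower than WT back. The log2 ratio of WT limb over WT back, -2.19, was -2.63 with a floor of 50 and -1.19 with a floor of 200, and that of the back pair was -1.19 with a floor of 200. In the limb pair the direction was the other one, at least 1.61-fold higher in MyoD-null limb. Both comparisons against WT back use the same array and the same probe set, so they are not 2 separate readings.

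Cdh19 lay around the floor, with 136 in MyoD-null limb, 82.1 in WT limb, 40.0 in the back array labelled Myf5-null and 130 in WT back. It was at least 1.36-fold higher in MyoD-null limb than in WT limb. It was at least 1.30-fold lower in the back array labelled Myf5-null than in WT back. None of its signals reached 200, so Cdh19 could not be counted at 2-fold in any comparison.

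**Figure D2:**
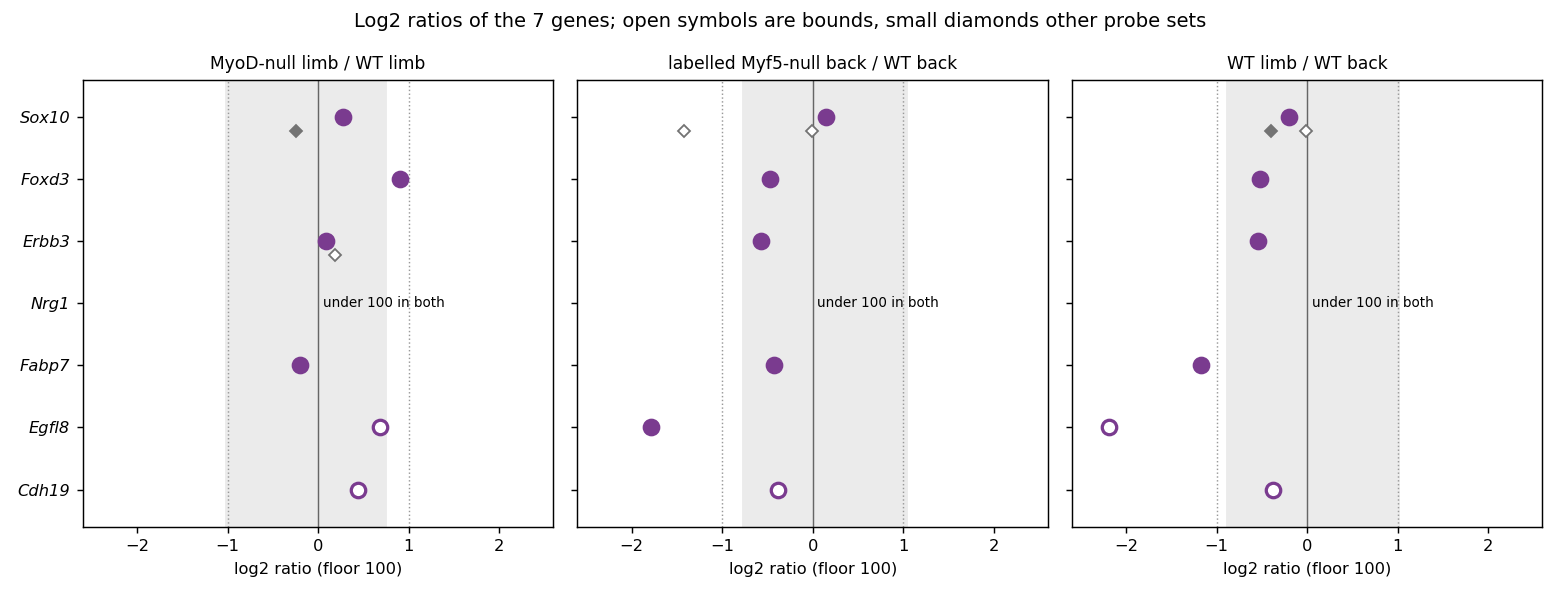
Log2 ratios (floor of 100) of the 7 genes in 3 comparisons, with large circles for the probe set read for the gene, small diamonds for its other probe sets, and open symbols for bounds against a signal under 100. Grey bands hold the central 90% of all measured genes, and dotted lines mark 2-fold. Egfl8 lies at -1.79 in the back pair and -2.19 for WT limb over WT back, where it is a bound.

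The comparison of MyoD-null limb with WT limb asks how Schwann cell genes stand in limb muscle of embryos labelled MyoD-/-. Of the 6 measured genes, 5 were above 0 and 1, Fabp7, was below, with a median log2 ratio of 0.36. The median of all measured genes was -0.04, and 46.1% of them lay above 0. At 2-fold, 0 of the 7 genes were counted higher and 0 lower, against 2.3% and 5.19% of all 14496 measured genes. By probe set, 6 of 8 measured lay above 0. The genes beyond the spread of 0.35 were Foxd3 at 0.91, Egfl8 at 0.69 and Cdh19 at 0.44, and the last 2 are bounds. Sox10 and Erbb3 were within it. In tissue, a difference in the number of Schwann cells and a difference in RNA per cell cannot be told apart, here and below.

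In the back array labelled Myf5-null against WT back, the direction was mostly the other one. Of the 6 measured genes, 5 were below 0 and 1, Sox10, was above, with a median of -0.45. The median of all 14684 measured genes was 0.05, and 46.2% of them lay below 0. Egfl8 was the 1 gene counted at 2-fold, lower, and 2.48% of all measured genes were counted lower and 5.5% higher. By probe set, 7 of 8 measured lay below 0, including the dimmest Sox10 probe set at -0.01, a bound from 101 in WT back against the floor. Counted lower were 2, Egfl8 and the second Sox10 probe set, against 2.9% of all probe sets. Such counts of 1 or 2 among so few carry little weight. Foxd3, Erbb3, Fabp7 and Cdh19 lay between -0.57 and -0.38, beyond the spread of 0.32 between probe sets but short of 2-fold.

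Between the WT arrays, all 6 measured genes were lower in limb than in back. Their median log2 ratio was -0.53, against 0.04 for all 14605 measured genes, of which 46.8% were below 0. Counted at 2-fold were 2 genes, Fabp7 and Egfl8, both lower, while 3.5% of all measured genes were counted lower and 5.3% higher. Each probe set pointed the same way, with 8 of 8 measured below 0, from -2.19 for Egfl8 to -0.01 for the dimmest Sox10 probe set. Egfl8, Cdh19 and the dimmest Sox10 probe set gave bounds here, the last from 101 in WT back against the floor. The 3 prime over 5 prime ratios were highest in WT limb and lowest in WT back, at 12.2 against 6.45 for Gapdh and 6.88 against 3.20 for Actb. Over the 4 arrays both ratios run in the inverse order of the summed signal of the 7 genes, which was 4043 in MyoD-null limb, 3512 in WT limb, 3820 in the back array labelled Myf5-null and 5537 in WT back. The sums include signals under 100 as read. Without Erbb3 the order was the same, but MyoD-null limb at 1600 and the back array labelled Myf5-null at 1557 lay close. Signals treated as having no level enter both of these values, so the order between them is uncertain. Of the 6 measured genes only Egfl8 had the order of the 7-gene sum by itself. The part of the 3 prime over 5 prime ratios in the values of the 7 genes was not tested. The WT back array enters this comparison and the one above, and the WT limb array enters this one and the limb pair. A high signal in WT back alone would lower both of the ratios taken against it, and the values are given side by side for that reason.

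Other genes of the neuregulin and ErbB system were read from a list of 12, of which 11 are on the array under these names. Their median log2 ratio lay near 0, at 0.08 in the limb pair, 0.07 in the back pair and 0.08 for WT limb over WT back. At 2-fold, 0 of 10 measured were counted in the limb pair, 0 of 9 in the back pair and 1 of 9 between the WT arrays. Over all measured genes the shares counted were 7.5%, 7.98% and 8.8%, so these counts carry little weight. Erbb2, the kinase partner of ErbB3, had 754 in MyoD-null limb, 818 in WT limb, 846 in the back array labelled Myf5-null and 715 in WT back. Its log2 ratio in the back pair was 0.24, against -0.57 for Erbb3. Erbb4, the other neuregulin receptor, was under 100 in all 4 arrays.

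Of the further ligands, Nrg2 had the largest ratio in the limb pair. It had 128 in MyoD-null limb against 249 in WT limb (log2 ratio -0.97), and 189 in the back array labelled Myf5-null against 36.9 in WT back. WT limb was at least 2.49-fold higher than WT back for Nrg2, the 1 gene of the list counted. Nrg3 and Nrg4 had no array at 200. Egfr, the EGF receptor, gave 0.55 in the limb pair and -0.30 in the back pair by its brightest probe set, but other probe sets of Egfr gave ratios of the opposite sign in both pairs. Adam17, a protease that sheds neuregulins, was 1789 in MyoD-null limb against 1289 in WT limb (0.47), and 1334 in the back array labelled Myf5-null against 1274 in WT back (0.07). A dimmer probe set of Adam17 gave 0.61 in the limb pair and 0.95 in the back pair. The dimmest, near the floor, gave -0.08 in the back pair. Erbin, a protein that binds ErbB2, was 3662 against 2858 in the limb pair (0.36) and 2323 against 3158 in the back pair (-0.44), with opposite signs in a dimmer probe set.

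A wider list of 40 Schwann cell and precursor genes, 37 of them on the array under these names, was split about evenly. In the limb pair 17 of 34 measured genes were above 0 and 17 below, with a median of 0.01. In the back pair 18 of 32 were above 0 and 14 below, with a median of 0.10. Between the WT arrays 16 of 35 were above 0 and 19 below, with a median of -0.02. Many of these genes are also used by other tissues of the pieces.

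**Figure D3:**
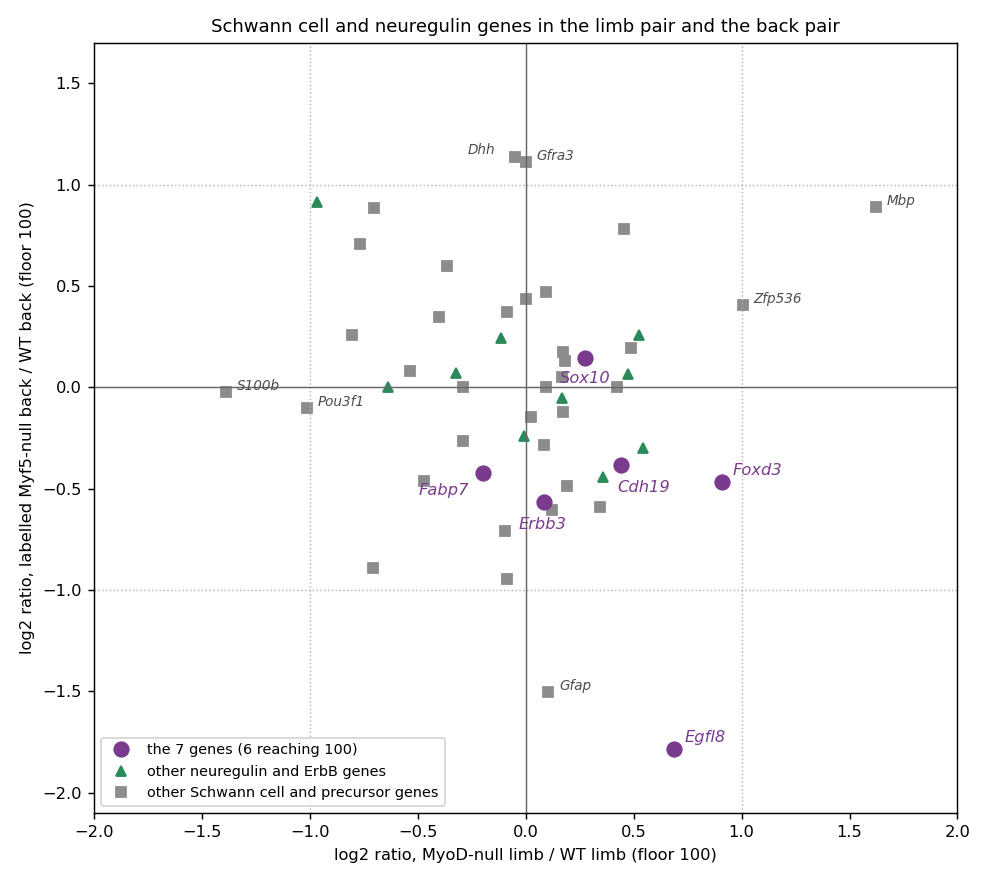
Log2 ratio in the limb pair (x axis) against the back pair (y axis), both with a floor of 100, for the 6 of the 7 genes that reached 100, the other neuregulin and ErbB genes and the wider Schwann cell list. The 2 pairs share no array, and genes under 100 in both arrays of a pair lie at 0. Foxd3, Erbb3, Egfl8 and Cdh19 lie above 0 in the limb pair and below 0 in the back pair, while the wider list spreads to all sides.

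Single genes of the wider list went both ways. Ngfr, the low-affinity neurotrophin receptor of immature Schwann cells, had 889 in MyoD-null limb, 950 in WT limb, 633 in the back array labelled Myf5-null and 1035 in WT back. Its log2 ratio in the back pair, -0.71, had the sign of Erbb3, Foxd3 and Fabp7. Gfra3, the receptor part for artemin, went the other way, with 615 in the back array labelled Myf5-null against 285 in WT back (1.11). Its limb arrays were equal at 403 and 403. Dhh, the hedgehog ligand that Schwann cells send to the nerve sheath, was also higher in the back array labelled Myf5-null, at 320 against 146 in WT back (1.13). Gfap, the intermediate filament of immature and non-myelinating glia, was lower there, at 99.8 against 284, or at least 2.84-fold. Adgrg6, an adhesion receptor needed for myelination, was 529 against 1021 (-0.95), and its second probe set gave -0.71. Sox2, a factor of immature glia, was under 100 in the back array labelled Myf5-null, against 138 in WT back, and 118 in MyoD-null limb against 163 in WT limb. The genes counted in the back pair were Dhh and Gfra3, higher, and Gfap, lower. Over all measured genes 5.5% were counted higher and 2.48% lower.

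In the limb pair 4 genes of the wider list were counted, 2 each way, while 2.3% of all measured genes were counted higher and 5.19% lower. Zfp536, a repressor of differentiation, was 218 in MyoD-null limb against 109 in WT limb, or 2.01-fold, with -0.67 in a dimmer probe set. Mbp, a myelin protein gene, was 308 in MyoD-null limb against under 100 in WT limb, at least 3.08-fold higher, but another probe set of Mbp gave -1.74. S100b, a calcium binding protein of glia and cartilage, was under 100 in MyoD-null limb against 261 in WT limb, at least 2.61-fold lower. Pou3f1, a factor of promyelinating cells, was at least 2.02-fold lower, under 100 against 202. Each of these 4 had 1 signal at 109 or less. Between the WT arrays 2 of the list were higher in limb, Tfap2a and Sostdc1, and 5 were lower: Gap43, Gfap, Postn, Zfp536 and Nrcam. The shares counted over all measured genes were 5.3% higher and 3.5% lower. Tfap2a, a factor of neural crest and of limb ectoderm and mesenchyme, had 1806 in WT limb against 332 in WT back (2.45), although a dim probe set of Tfap2a gave -0.37. Postn, a matrix protein of many connective tissues, had 5509 against 19889 (-1.85).

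Genes of the tissues that Schwann cells accompany were read beside them. Nerve fibre and neuron genes were lower in WT limb than in WT back, with 14 of 15 measured below 0, 6 counted lower and a median of -0.88. Over all measured genes 46.8% were below 0 and 3.5% were counted lower there. The medium neurofilament gene Nefm had 275 in WT limb against 898 in WT back (-1.71). Summed over the 17 genes of that list, the signal was 3547 in MyoD-null limb, 3004 in WT limb, 5229 in the back array labelled Myf5-null and 5594 in WT back. In the back pair the median was -0.22, with 10 of 16 below 0, 1 counted lower, Stmn2, and 1 higher, Rtn1. A dimmer probe set of Stmn2 gave 0.16 there. In the limb pair the median was 0.13, with 7 of 13 above 0 and 0 counted. The nerve fibre list thus had the sign of the 7 genes in all 3 comparisons, although its limb median was -0.05 when the median over each gene's probe sets was taken. The part of nerve content in the values of the 7 genes was not tested.

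Melanoblast genes, which mark the other crest lineage that uses Sox10 and Erbb3, had the opposite sign. In the limb pair 7 of 9 measured were below 0 (median -0.61), in the back pair 8 of 10 were above 0 (0.57), and between the WT arrays 7 of 10 were above 0 (0.59). Dct, an enzyme of pigment cells, had 159 in MyoD-null limb against 333 in WT limb (-1.06), and 375 in the back array labelled Myf5-null against 126 in WT back (1.57). Summed over the 11 genes, the signal was 1570, 2115, 2363 and 1440 in MyoD-null limb, WT limb, the back array labelled Myf5-null and WT back. This is also the order of the shares of probe sets at 100 or more, except for the 2 arrays with the lowest sums, which lie close on both measures. Pmel went against the list in the back, at 126 against 241 (-0.94), as did a second probe set of Tyr (-1.17). Most of these signals lie near the floor, and how far they reflect pigment cells was not tested.

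Markers of nerve cell bodies and of the spinal cord, which a dissected piece could hold, had few bright members. The bright ones included Ntrk2, a neurotrophin receptor of the sensory list, at 948 to 1112 over the 4 arrays. Nes, an intermediate filament gene of neural and muscle progenitors in the spinal cord list, had 1749 in MyoD-null limb, 1652 in WT limb, 4054 in the back array labelled Myf5-null and 3888 in WT back. Hand2, an autonomic neuron factor that limb mesenchyme also uses, had 3500 in MyoD-null limb, 4508 in WT limb, 1125 in the back array labelled Myf5-null and 909 in WT back. Sensory ganglion genes had medians of -0.65 in the limb pair, 0.04 in the back pair and 0.39 for WT limb over WT back. Spinal cord genes had -0.41, 0.40 and 0.43 in that order, and autonomic neuron genes -0.62, 0.44 and 0.62. Of the spinal cord list, which includes the astroglial transporter gene Slc1a3, 6 of 14 genes reached 100 in MyoD-null limb, 8 in WT limb, 8 in the back array labelled Myf5-null and 5 in WT back. Slc1a3, also made by Schwann cell precursors and satellite glia, was 343 in MyoD-null limb against under 100 in WT limb and 263 in the back array labelled Myf5-null against 435 in WT back. Its dimmer probe sets gave both signs in the limb pair.

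The rest of each piece differed as well. Muscle genes had medians of -0.55 in the limb pair, -0.58 in the back pair and -0.85 for WT limb over WT back. Below 0 in the limb pair were 14 of 18 muscle genes, with 5 counted lower, against 5.19% of all measured genes. Counted higher was 1, Myf5, at 1019 in MyoD-null limb against 506 in WT limb (1.01), where 2.3% of all measured genes were counted higher. Below 0 in the back pair were 17 of 18, with 5 counted lower and 0 higher, against 2.48% and 5.5% of all measured genes. The muscle medians thus had one sign in both pairs, and those of the 7 Schwann cell genes had opposite signs. Cartilage genes had 0.18, -1.85 and 0.09, with 9 of 12 counted lower in the back array labelled Myf5-null. Their sum was 23085 in MyoD-null limb, 19515 in WT limb, 5421 in the back array labelled Myf5-null and 21905 in WT back. Macrophage genes had -0.17, -0.29 and -1.18, connective tissue fibroblast genes -0.29, 0.09 and -0.05, and endothelial genes -0.07, -0.08 and -0.04. Epidermis genes had 0.28, 0.17 and 0.47, and red blood cell genes -0.65, -0.26 and -0.15. The part of these other tissues in the values of the 7 genes was not tested.

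**Figure D4:**
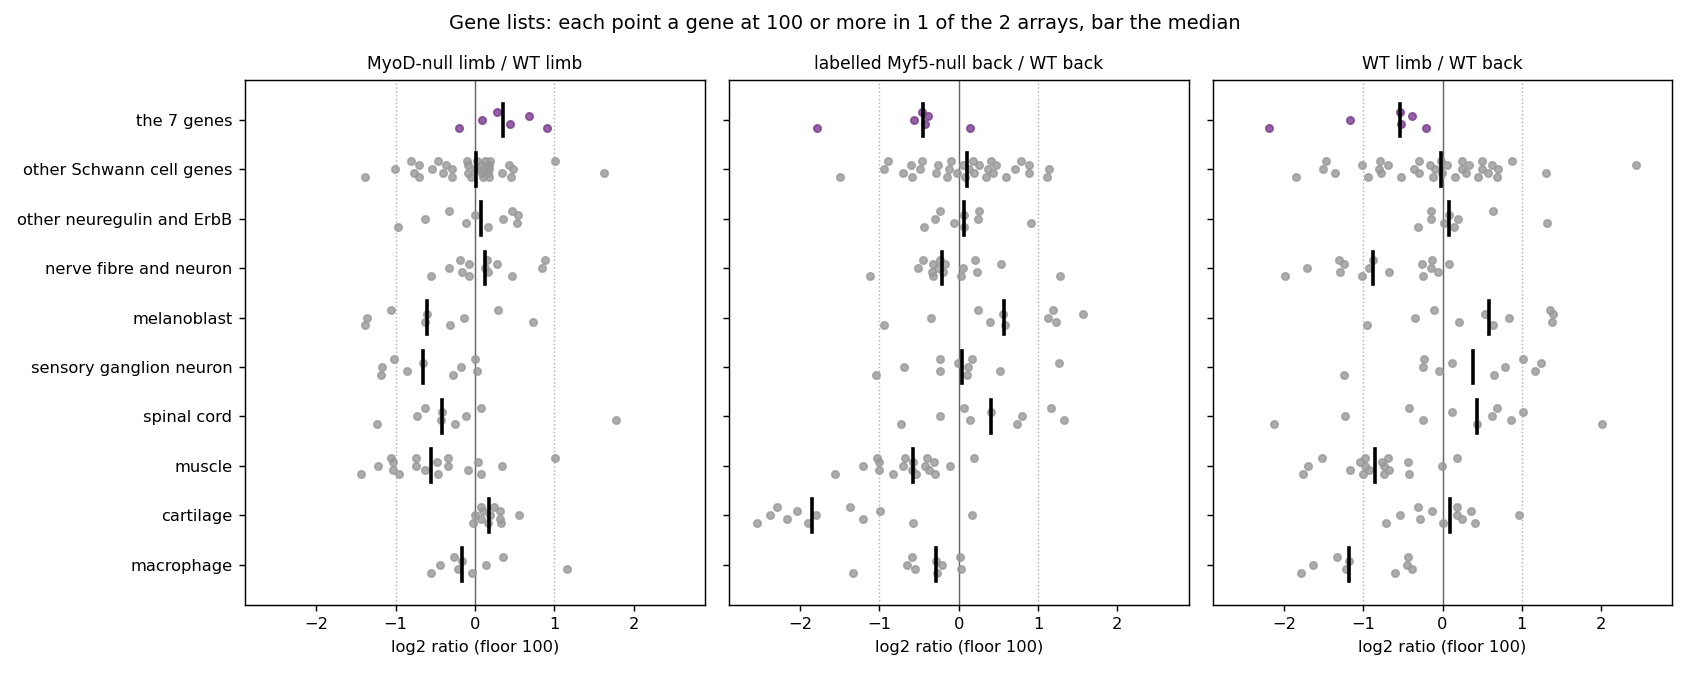
Log2 ratios (floor of 100) of the genes of 10 lists in 3 comparisons, each point a gene that reached 100 in either array and each bar the list's median. The 7 genes have medians of 0.36, -0.45 and -0.53 from left to right, and the nerve fibre list 0.13, -0.22 and -0.88.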

How the data were processed

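Each deposited value is a linear intensity, 1 per probe set, from MAS5 (per the submitters' processing notes, with no version given in the sources used here). RNA was extracted with Trizol and labelled from 6 µg, per the labels' protocols. The trimmed means of the columns lay between 1477 and 1479, so the authors had scaled them. Here the arrays were rescaled to a trimmed mean of 500 (2% off each end, control probe sets left out), with a floor of 100. The platform annotation named the probe sets, and the one with the highest mean log2 signal was read for a gene. With 1 array per group no test was run. The member genes and lists were chosen with earlier results of these data known. Named are every member, up to 4 genes per list with the largest ratios, Erbb2, Ngfr, Gfra3, Sox2 and the targeted genes; part of these are given, with Erbb4, Nrg3, Nrg4, Ntrk2, Nes, Hand2 and probe sets that disagree added after their values were seen. A rule for genes with a pattern like Sox10 or Erbb3 gave none, since these ranged over less than 2-fold. The steps were tested on simulated data, with changes put only into bright probe sets, so changes in dim genes were not tried. The 8 alternatives are given in the closing section. Python 3.11.15 and statsmodels 0.14.6 were used.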

Additional observations from a re-analysis of the deposited data

How the results depend on the processing

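No paired analysis was possible because each group has 1 array. The 9 medians given for the 7 genes, the other neuregulin and ErbB genes and the wider Schwann cell list moved by less than the spread between probe sets under all 8 alternatives. For the 7 genes they ran from 0.18 (floor of 200) to 0.70 (floor of 50) in the limb pair, from -0.50 to -0.40 in the back pair and from -0.59 to -0.43 for WT limb over WT back, while some medians near 0 of the other 2 lists changed sign. The signs of Foxd3, Erbb3, Fabp7, Egfl8 and Cdh19 held wherever they had a value. Sox10 in the back pair ran from -0.01, as the median over its probe sets, to 0.16, and it had no value without shared-probe probe sets. In the limb pair 1 of the 7 genes, Foxd3, was counted at 2-fold under quantile normalization (1.06) and 1 after loess (1.08). Between the WT arrays 1 was counted with a pseudocount of 100, and Nrg2 was no longer counted with a floor of 200 or as a median over probe sets (0 each). Of the wider list, counts in the limb pair were 0 with a floor of 200, 2 with a pseudocount of 100 and 0 as a median over probe sets. In the back pair they were 1, 0 and 1 in that order, and between the WT arrays 4, 4 and 3. A higher floor and a pseudocount shrink low ratios by construction, and other causes were not tested. Over all genes, 1087, 1172 and 1285 were counted in the limb pair, the back pair and between the WT arrays. With a floor of 200 these became 293, 274 and 504, with a pseudocount 495, 602 and 681, and as a median over probe sets 608, 694 and 769. Of the calls 30.7% were higher in the limb pair, but 45.5% under quantile normalization and 42.2% after loess. In the back pair it was 68.9%, but 50.3% and 53.4%. Egfl8 in the back pair was -1.19 with a floor of 200 and -1.26 with a pseudocount, and for WT limb over WT back it ran from -2.63 (floor of 50) to -1.19 (floor of 200). Cdh19 in the back pair was -1.38 with a floor of 50.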
